A study of Mus musculus with 8 samples.

Results

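The subunits of the mitochondrial respiratory chain and of ATP synthase were examined in gallbladders of leptin-deficient mice given leptin or saline. A probe set was included when its single mouse gene symbol began with Nduf, Uqcr, Atp5, Cox4i, Cox5, Cox6, Cox7 or Cox8, or was Sdha, Sdhb, Sdhc, Sdhd, Cyc1 or Cycs. This rule took 184 of the 45101 probe sets on the array, and they stood for 92 of the 18193 genes that had a probe set with 1 symbol. Values for 86 of these genes and 157 of these probe sets lay above the filter on dim probe sets and were tested.

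All mice were female B6.V-lepob animals, which are obese and make no functional leptin, so the saline group carried the same mutation as the treated one. From 8 weeks of age on, 12 mice received recombinant mouse leptin by intraperitoneal injection each day for 4 weeks at 5 µg per g of body weight, and 12 received saline. They were fasted overnight at 12 weeks of age before the gallbladder was taken. RNA came from pools of 3 whole gallbladders, and each of the 4 leptin pools (numbered 5 to 8) and 4 saline pools (numbered 1 to 4) was read on 1 Affymetrix Mouse Genome 430 2.0 array. There was no group of lean mice, and food intake and body weight were not used here, so an action of leptin on the organ and one through feeding or weight cannot be told apart.

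Complexes I and II feed electrons from NADH and from succinate into the chain, complex III passes them to cytochrome c, and complex IV hands them to oxygen. Complexes I, III and IV pump protons out of the mitochondrial matrix as they work, and complex V, ATP synthase, uses the return flow to make ATP. In the gallbladder, ATP drives the epithelial ion transport that concentrates bile as well as the contraction of the muscle wall. All genes examined here lie in the nucleus. Probe sets for the chain subunits encoded by mitochondrial DNA were not analysed here.

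The start-site regions of 4 of the genes described below are shown here, chosen after their values were seen. Ndufa4 and Ndufaf4 had the largest falls, Ndufa8 was the next gene in complex I, and Sdhb was the called gene of complex II. Each is the coding-strand sequence of 300 bases from 250 bases before to 50 bases after the annotated start, from RefSeq on GRCm38.p6. Any annotated start of these genes that lay on another chromosome was not shown, but it was kept in the counts below. Capitals mark a match to the letters of the binding motif of NRF1 (GCGCA, any base, GCGC) or of GABP (CCGGAAG), 2 transcription factors known for regulating nuclear genes of the respiratory chain. Both strands were searched, so a match to the opposite strand reads GCGC, any base, TGCGC or CTTCCGG, and the letters of the 2 motifs do not overlap each other in these windows. Ndufa4 lies on the minus strand at chr6:11907401-11907700, Ndufa8 on the minus strand at chr2:36049289-36049588, Ndufaf4 on the plus strand at chr4:24897833-24898132 and Sdhb on the plus strand at chr4:140961021-140961320.
Ndufa4: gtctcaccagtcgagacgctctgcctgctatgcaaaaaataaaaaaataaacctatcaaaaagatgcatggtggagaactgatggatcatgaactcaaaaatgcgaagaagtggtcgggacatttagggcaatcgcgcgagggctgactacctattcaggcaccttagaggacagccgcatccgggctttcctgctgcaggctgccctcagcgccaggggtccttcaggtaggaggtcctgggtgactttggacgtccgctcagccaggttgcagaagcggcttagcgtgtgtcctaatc
Ndufa8: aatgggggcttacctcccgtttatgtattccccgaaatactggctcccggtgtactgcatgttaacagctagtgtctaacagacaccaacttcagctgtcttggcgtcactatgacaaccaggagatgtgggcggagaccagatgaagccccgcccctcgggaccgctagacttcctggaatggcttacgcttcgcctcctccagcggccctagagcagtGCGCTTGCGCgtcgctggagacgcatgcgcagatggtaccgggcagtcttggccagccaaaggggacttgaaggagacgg
Ndufaf4: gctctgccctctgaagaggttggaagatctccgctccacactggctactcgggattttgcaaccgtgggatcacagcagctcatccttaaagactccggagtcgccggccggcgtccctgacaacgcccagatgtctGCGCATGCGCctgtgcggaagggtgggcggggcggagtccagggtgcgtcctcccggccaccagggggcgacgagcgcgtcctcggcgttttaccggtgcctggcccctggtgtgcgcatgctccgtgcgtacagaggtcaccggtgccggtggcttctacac
Sdhb: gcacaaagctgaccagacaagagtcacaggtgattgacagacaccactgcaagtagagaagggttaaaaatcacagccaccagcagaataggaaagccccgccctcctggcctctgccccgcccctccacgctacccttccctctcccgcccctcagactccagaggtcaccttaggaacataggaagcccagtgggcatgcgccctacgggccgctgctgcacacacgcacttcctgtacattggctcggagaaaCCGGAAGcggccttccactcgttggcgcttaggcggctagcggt
The windows shown for Ndufa8 and Ndufaf4 each held 1 match to the NRF1 letters, that shown for Sdhb held 1 match to the GABP letters, and that shown for Ndufa4 held neither. Windows were found for 75 of the 92 genes, 80 windows in all because some genes have several starts. The NRF1 letters occurred in 18 of the 80 (22.5%), against 4.60% of all 32851 windows of the same length. The GABP letters occurred in 19 of the 80 (23.8%), against 8.86% of all windows. Among the 9 windows found for genes called lower by their brightest probe set, 2 held the NRF1 letters (Ndufa8 and Ndufaf4) and 4 held the GABP letters (Sdhb, Ndufb7, Atp5l and Uqcr11). A match describes these letters only and is not a measured binding site.

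Respiratory chain genes had slightly lower signals in the leptin pools across most of the chain, and none was called higher. At the 0.05 threshold of limma's moderated test (p adjusted by Benjamini-Hochberg across all 22519 probe sets tested), 10 of the 86 tested genes fell, which is 11.6%, when each gene was read from its brightest probe set. The same threshold called 3.98% of all 11719 tested genes lower and 4.29% higher. Of the 157 tested probe sets, 14 fell (8.92%) and 0 rose, against 3.39% lower and 3.54% higher over all tested probe sets. At an unadjusted p under 0.05, 33 of the 86 genes were lower and 0 were higher, whereas 12.8% of all tested genes were lower. The median standard error was 0.103 over the 86 genes, against 0.171 over all tested genes. Over the 157 probe sets, 59 were lower and 3 higher at that unadjusted p, for which no share over all tested probe sets was taken. The 3 higher ones were dim probe sets of Sdha (0.70, adjusted p = 0.205), Uqcrq (0.58, adjusted p = 0.158) and Ndufs4 (0.43, adjusted p = 0.191). The genes called lower were Ndufa4, Ndufa8, Ndufb7 and Ndufv2 of complex I, the assembly factor Ndufaf4, Sdhb of complex II, Uqcrq, Uqcr10 and Uqcr11 of complex III, and Atp5l of complex V. Ndufb6 and Cox5a were also called, each by a dimmer probe set and not by its brightest one.

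The typical difference was small. Over the 86 genes the median log2 fold change, leptin minus saline, was -0.19 (interquartile range -0.27 to -0.07), a leptin signal that was 87.7% of the saline signal, against a median of 0.02 over all tested genes. It lay below 0 in 76 of the 86 genes (88.4%), against 47.4% of all tested genes. That count depended on how the arrays were scaled to each other: it was 61 with quantile normalization, 53 with cyclic loess and 85 with median centring of the arrays. The 4 leptin pools all lay below the 4 saline pools in 25 genes (29.1%), against 8.58% of all tested genes. That share was not taken among genes of like brightness. Because whole gallbladders were measured, fewer cells of a type and less RNA per cell cannot be told apart, and p-values measure the spread between pools of 3 mice rather than between single mice.

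**Figure D1:**
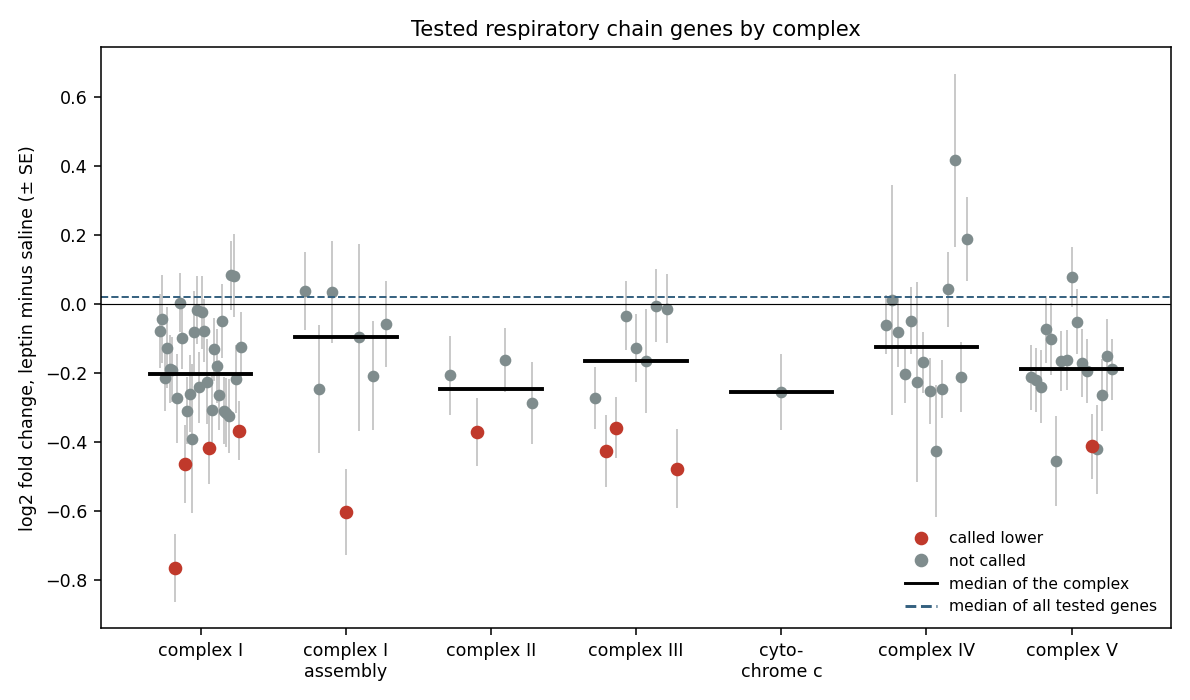
Log2 fold change (leptin minus saline, vertical axis, bars ± SE) of each of the 86 tested genes, grouped by complex along the horizontal axis, from 4 leptin and 4 saline pools. Red points are the 10 genes called lower; black bars are the medians of the complexes, which run from -0.26 for cytochrome c (1 gene) to -0.10 for the complex I assembly factors, and the dashed line is the median of all tested genes at 0.02.

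Signal strength moved with the difference over the whole array, and chain genes are brightly detected. When all tested probe sets were ordered by mean signal and cut into 10 groups of equal size, the median log2 fold change was 0.21 in the dimmest group and -0.13 in the brightest. Of the 157 tested chain probe sets, 119 were in the brightest group, where 13 of them fell (10.9%), against 10.6% of all 2252 probe sets in that group. The share of chain probe sets called lower was therefore close to that of other probe sets of like brightness. Their median there was -0.21 against -0.13, and 110 of the 119 (92.4%) lay below 0 against 71% of that group. The arrays themselves also differed between treatments. The median signal of the array was 98.9 ± 5.74 in leptin pools and 81.8 ± 4.18 in saline pools (SD, n = 4 each), and 69.4% ± 1.10 of probe sets lay above background in leptin pools against 64.9% ± 1.49 in saline pools (exact permutation p = 0.0286 for each, the smallest that 70 assignments allow, 0.0571 after adjustment over 4 measures). The 3' to 5' signal ratio of actin, a measure of RNA integrity, was 1.89 ± 0.207 in leptin pools and 1.60 ± 0.0882 in saline pools (exact permutation p = 0.0571, adjusted 0.0762), and that of GAPDH was 0.818 ± 0.0248 and 0.813 ± 0.0409 (exact permutation p = 0.857). The part of these differences in the results was not tested beyond the alternative settings given below.

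**Figure D2:**
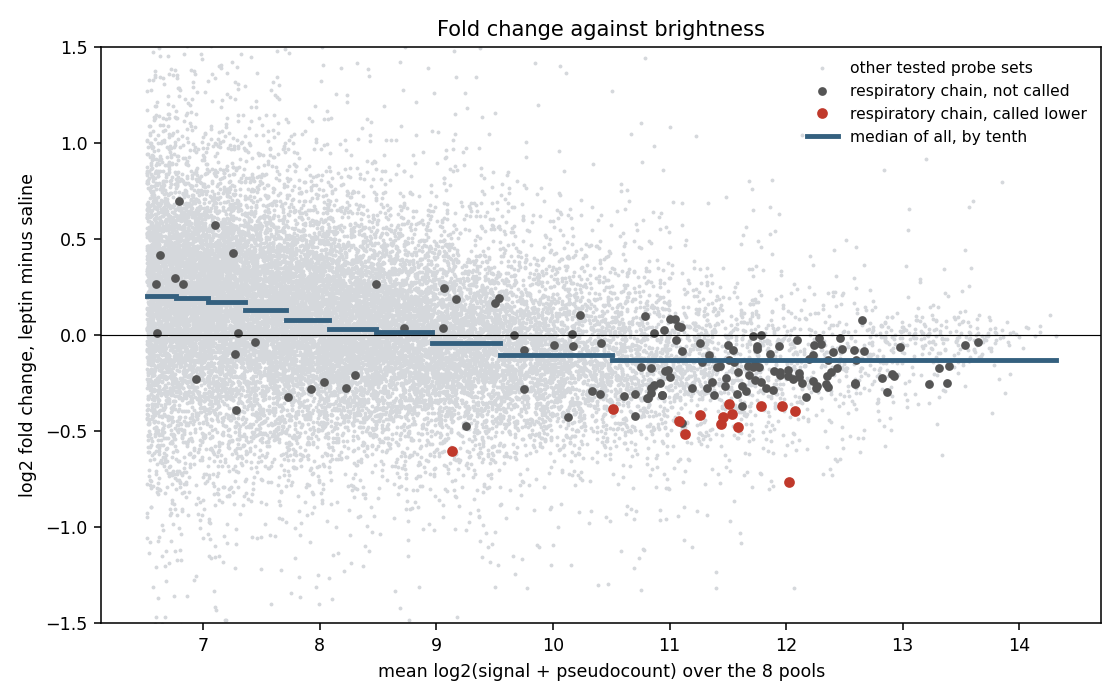
Log2 fold change (leptin minus saline, vertical axis) against mean log2 signal over the 8 pools (horizontal axis) for all tested probe sets in grey and the 157 tested chain probe sets in colour, with the medians of 10 groups of equal size by brightness. The vertical axis stops at 1.5 in both directions, which leaves 167 probe sets outside it; the medians are 0.21 in the dimmest group and -0.13 in the brightest, where most chain probe sets lie.

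In complex I, 4 of 34 tested subunit genes (11.8%) fell, 0 rose and the median log2 fold change was -0.20, with 31 genes below 0. Of all tested genes 3.98% were called lower and 47.4% lay below 0. In the brightest group of probe sets, where most chain probe sets lie, 10.6% were called lower and 71% lay below 0. The counts of the complexes were not matched for brightness. Ndufa4, whose product was long counted in complex I and is now regarded as a subunit of complex IV, had the largest difference. Its signal was 3295, 3266, 2923 and 3248 in leptin pools 5 to 8, against 4698, 5615, 5893 and 5496 in saline pools 1 to 4. The highest leptin pool lay well under the lowest saline pool. The means were 3183 ± 174 in leptin pools and 5426 ± 513 in saline pools, a log2 fold change of -0.76 ± 0.098 (SE; adjusted p = 0.00056), and among all 11719 tested genes it had rank 83 by p and rank 198 by size of fall. Its related gene Ndufa4l2, which is induced by hypoxia in other tissues, was too dim to be tested. It had signals of 96.3, 113, 86.7 and 106 in leptin pools, against 53.8, 59.5, 27.1 and 73.3 in saline pools. Those pools did not overlap, 1 saline pool lay under the background of 46.0, and in a fit with no filter the log2 fold change was 0.88 ± 0.33 (limma, adjusted p = 0.212).

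The other complex I genes called lower were less far apart. Ndufa8, an accessory subunit of the part that faces the intermembrane space, had 2742, 2243, 2175 and 2322 in leptin pools and 2781, 3414, 3543 and 3350 in saline pools. The groups did not overlap, but leptin 5 and saline 1 lay close together, and the log2 fold change was -0.46 ± 0.11 (adjusted p = 0.027). Ndufb7, an accessory subunit of the same face of the membrane arm, had 1838, 2086, 2183 and 2389 in leptin pools and 2581, 2982, 2918 and 2831 in saline pools. All its leptin pools were lower (-0.42 ± 0.11, adjusted p = 0.034), and its second probe set, at 1301, 1285, 1263 and 1243 against 1540, 1653, 1644 and 1837, was lower too (-0.39 ± 0.099, adjusted p = 0.035). Ndufv2, an iron-sulfur subunit of the NADH-oxidising module, had 3084, 3020, 3190 and 3119 in leptin pools against 3848, 3979, 3932 and 4265 in saline pools. These narrow, separate groups gave a log2 fold change of -0.37 ± 0.086 (adjusted p = 0.024). A second Ndufv2 probe set was also called (-0.51 ± 0.13, adjusted p = 0.032), although its leptin 6 pool at 2257 lay above saline 4 at 2226, and a dimmer probe set was not (-0.29, adjusted p = 0.090).

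Ndufb6, an accessory subunit of the membrane arm, had probe sets on both sides of the threshold. The dimmer had 1920, 2020, 1843 and 1634 in leptin pools against 2061, 2783, 2550 and 2775 in saline pools (-0.45 ± 0.12, adjusted p = 0.042). The brighter had 2224, 3033, 2464 and 2936 in leptin pools against 2905, 3102, 2796 and 3617 in saline pools, where the groups overlapped (-0.22 ± 0.12, adjusted p = 0.30). Among the genes that were not called, Ndufs3, Ndufs4, Ndufs5, Ndufa9 and Ndufb8 had all leptin pools below all saline pools at the brightest probe set. Their log2 fold changes there lay between -0.33 and -0.31, with adjusted p between 0.075 and 0.097. A dim Ndufs4 probe set went the other way, with 150 to 194 in leptin pools against 106 to 143 in saline pools and no overlap. It had 0.43 ± 0.19 (adjusted p = 0.191), while the other tested Ndufs4 probe set had -0.28. The dimmer tested probe set of Ndufb8 had 0.27 (adjusted p = 0.566). The largest positive values in the complex were 0.08 for Ndufs7 (adjusted p = 0.65), 0.08 for Ndufs8 (adjusted p = 0.72) and 0.004 for Ndufa6 (adjusted p = 0.985). Ndufs7 and Ndufs8 encode iron-sulfur subunits of the arm that passes electrons to ubiquinone, and 6 Ndufs8 probe sets ranged from -0.47 to 0.27, none of them called. The median was -0.13 over the 6 tested genes of the catalytic core and -0.20 over the other 28.

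**Figure D3:**
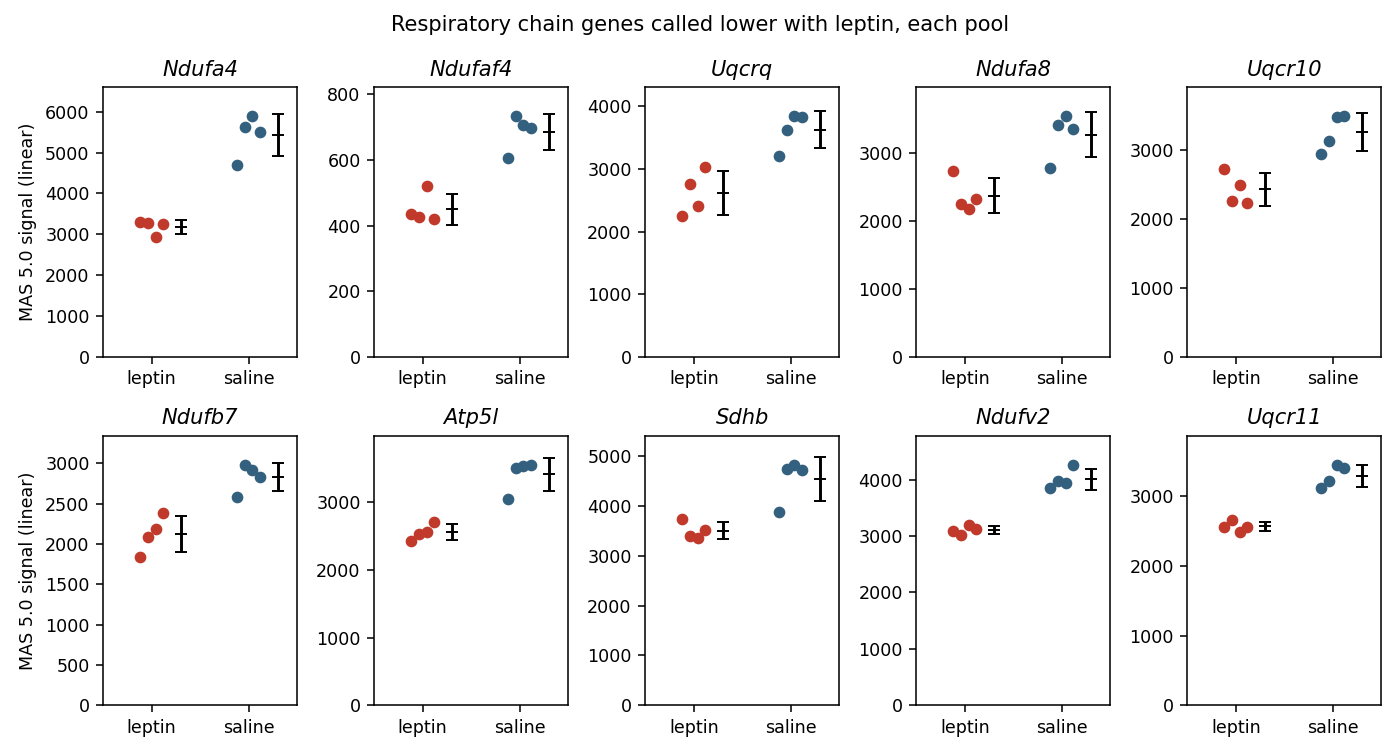
Linear MAS 5.0 signal (vertical axis, from 0, a scale of its own in each panel) in each leptin and saline pool for the 10 genes called lower by their brightest probe set. Points are single pools and bars are group means with SD; in each panel all 4 leptin pools lie under all 4 saline pools, and saline 1 is the lowest saline pool in all 10.

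Of the assembly factors of complex I, which help build the complex but are not part of it, 1 of 7 tested genes fell and the median was -0.10. That is 14.3%, against 3.98% of all tested genes. Ndufaf4, which acts early in assembly, had signals of 437, 424, 519 and 419 in leptin pools against 607, 734, 707 and 698 in saline pools. No leptin pool reached the lowest saline pool, the means were 450 ± 47.0 in leptin pools and 686 ± 55.2 in saline pools, and the log2 fold change was -0.60 ± 0.13 (adjusted p = 0.013). A dimmer Ndufaf4 probe set had -0.27 ± 0.15 (adjusted p = 0.299). The values of the other assembly factors included -0.24 for Ndufaf2 (adjusted p = 0.457), -0.21 for Ndufaf7 (adjusted p = 0.462), 0.04 for Ndufaf1 (adjusted p = 0.878) and 0.04 for Ndufaf3 (adjusted p = 0.912).

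Complex II is also the succinate dehydrogenase of the tricarboxylic acid cycle. At the brightest probe set all 4 of its genes had values below 0, and 1 fell (25%). Over all tested genes 3.98% fell, and over the brightest group of probe sets 10.6%. Of its 8 tested probe sets 6 lay below 0. The 2 above 0 were dimmer ones of Sdha (0.70, adjusted p = 0.205) and Sdhd (0.20, adjusted p = 0.421). Sdhb, the iron-sulfur subunit, had 3729, 3402, 3360 and 3523 in leptin pools against 3883, 4736, 4827 and 4726 in saline pools. Saline 1 lay just above the highest leptin pool, and the log2 fold change was -0.37 ± 0.099 (adjusted p = 0.041). Sdha, the subunit that carries the flavin and oxidises succinate, had 4496, 3170, 3794 and 3379 in leptin pools against 3937, 4318, 4464 and 4275 in saline pools, with leptin 5 above every saline pool (-0.21 ± 0.11, adjusted p = 0.298). The membrane anchors also overlapped. Sdhc had 2469, 2670, 2478 and 2629 in leptin pools against 2610, 2995, 2875 and 3003 in saline pools (-0.16 ± 0.093, adjusted p = 0.316). Sdhd had 3984, 3036, 3337 and 3426 in leptin pools against 3451, 4247, 4458 and 4676 in saline pools (-0.29 ± 0.12, adjusted p = 0.167).

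In complex III, 3 of 9 tested genes fell and all 9 values were below 0, with a median of -0.16. The share called was 33.3%, against 3.98% of all tested genes and 10.6% of the brightest group of probe sets. The genes called were 3 small subunits without a redox centre. Uqcrq, a small ubiquinone-binding subunit, had 2256, 2764, 2404 and 3029 in leptin pools against 3212, 3618, 3845 and 3828 in saline pools, with no overlap (-0.48 ± 0.11, adjusted p = 0.026). That probe set is of a type that can match several transcripts, and dimmer Uqcrq probe sets had higher signals in leptin pools. One averaged 161 in leptin pools and 108 in saline pools, above background in all 8 pools (0.58 ± 0.23, adjusted p = 0.158). Another, too dim to be tested, had 108.9, 92.5, 80.3 and 61.8 in leptin pools against 48.7, 44.1, 23.0 and 10 in saline pools, with no overlap. With the tested probe sets of the gene averaged, Uqcrq had 0.050 (adjusted p = 0.846) and was not called. Uqcr10, a subunit of the membrane part, had 2725, 2253, 2481 and 2228 in leptin pools against 2933, 3118, 3475 and 3484 in saline pools (-0.43 ± 0.11, adjusted p = 0.030). Its dimmer probe sets were not called and had values of 0.25 and -0.08. At the former all leptin pools were higher, at 524.4 to 597 against 456.5 to 509.4 in saline pools (adjusted p = 0.217). With its probe sets averaged Uqcr10 was not called either (-0.085, adjusted p = 0.677). Uqcr11, another small subunit, had 2566, 2654, 2495 and 2560 in leptin pools against 3115, 3223, 3454 and 3400 in saline pools, a wide gap between tight groups (-0.36 ± 0.088, adjusted p = 0.029).

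The subunits of complex III that carry the redox centres or form its core were not called. Cyc1, the cytochrome c1 haem protein, had 3299, 3317, 3096 and 3520 in leptin pools against 3725, 4054, 4252 and 3961 in saline pools, with no overlap (-0.27 ± 0.090, adjusted p = 0.090). Uqcrfs1, the Rieske iron-sulfur protein, had a value of -0.0047 (adjusted p = 0.984), and the core proteins Uqcrc1 and Uqcrc2 had -0.13 and -0.16. Uqcrh, the hinge protein that binds cytochrome c1, had -0.01, and Uqcrb had -0.03. Cycs, the mobile carrier cytochrome c itself, had 4591, 5248, 4488 and 4675 in leptin pools against 4752, 5866, 5552 and 6641 in saline pools. Leptin 6 lay above saline 1, and the log2 fold change was -0.26 ± 0.11 (adjusted p = 0.182).

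Complex IV, without Ndufa4, which its symbol placed in complex I, had 0 of 14 tested genes called by the brightest probe set, a median of -0.12 and 10 genes below 0. At an unadjusted p under 0.05 in the limma fit, 4 of its genes were lower (Cox5b, Cox6c, Cox7a1 and Cox7a2) and 0 were higher. Of all tested genes 12.8% were lower at that p, and the share among genes of like brightness was not taken. Its tissue isoforms were read as pairs. Cox4i1, the regulatory subunit made in most tissues, averaged 7903 in leptin pools and 8247 in saline pools (-0.06, adjusted p = 0.712), while the lung-enriched, hypoxia-responsive Cox4i2 averaged 97.0 and 90.3 (0.01 ± 0.33, adjusted p = 0.987). Cox6a1, the form of most tissues, had -0.05 (adjusted p = 0.809), and the heart and muscle form Cox6a2 averaged 111 in leptin pools and 127 in saline pools (-0.23, adjusted p = 0.678). Cox6b1 had -0.17 (adjusted p = 0.276), and its testis form Cox6b2, too dim to be tested, averaged 97.1 in leptin pools and 60.0 in saline pools. Cox7a1, the heart and muscle form, had 672, 1083, 1187 and 971 in leptin pools against 1684, 1240, 969 and 1361 in saline pools, so that the groups overlapped (-0.43 ± 0.19, adjusted p = 0.200). Its counterpart Cox7a2 had 9975, 9808, 9885 and 9364 in leptin pools against 10396, 11725, 11704 and 12561 in saline pools, which did not overlap (-0.25 ± 0.085, adjusted p = 0.102). Cox7a2l had 0.04 (adjusted p = 0.851). Cox8a, the form of most tissues, had -0.21 (adjusted p = 0.234). The muscle and brown fat form Cox8b lay above background in 2 leptin pools and 1 saline pool and was not tested, nor was Cox7b2, which lay under background in all 8 pools.

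Among the remaining genes assigned to complex IV by symbol, which leaves out Ndufa4, 1 was called, by a dimmer probe set. Cox5a, which encodes a subunit on the matrix side, had 3568, 3740, 3705 and 4032 at that probe set in leptin pools, against 4444, 4859, 5289 and 5178 in saline pools (-0.39 ± 0.093, adjusted p = 0.025). Its brightest probe set had -0.08 (adjusted p = 0.673) and another -0.18 (adjusted p = 0.362), so the Cox5a probe sets pointed the same way but differed in size. Cox6c had -0.25 (adjusted p = 0.133). The largest positive value was at Cox7c, read from a probe set near background with 84.7, 102.9, 155.2 and 94.1 in leptin pools against 80.1, 71.9, 76.1 and 83.0 in saline pools. Those pools did not overlap, but the value did not pass (0.42 ± 0.25, adjusted p = 0.344). Cox8c had 0.19 ± 0.12 (adjusted p = 0.376).

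In complex V, 1 of 17 tested genes fell, 16 lay below 0 and the median was -0.19. The share called was 5.88%, against 3.98% of all tested genes and 10.6% of the brightest group of probe sets. Atp5l, subunit g of the membrane part, had 2436, 2532, 2570 and 2708 in leptin pools against 3046, 3516, 3534 and 3557 in saline pools, with no overlap (-0.41 ± 0.094, adjusted p = 0.021). The 3 Atp5g genes encode the same c subunit of the rotor ring and differ in their import signals. Atp5g1 had 2001, 1812, 1874 and 1826 in leptin pools against 1963, 2615, 3050 and 2807 in saline pools, where leptin 5 lay above saline 1 (-0.45 ± 0.13, adjusted p = 0.053). Atp5g2 had -0.16 ± 0.087 with no overlap (adjusted p = 0.280), and Atp5g3 had -0.16 ± 0.087 (adjusted p = 0.291). Atp5md, a small membrane subunit, had 1358, 1841, 1255 and 1331 in leptin pools against 1739, 1875, 1980 and 2089 in saline pools (-0.42 ± 0.13, adjusted p = 0.070). The largest positive value was 0.08 for Atp5h, a subunit of the stalk (adjusted p = 0.631). The 5 genes of the catalytic head had values of -0.24 (Atp5c1), -0.22 (Atp5b), -0.21 (Atp5a1), -0.10 (Atp5e) and -0.07 (Atp5d), and none was called.

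Probe sets of the same gene did not always move alike. Of the 46 genes with several tested probe sets, 16 had values of opposite sign and 6 were called by some probe sets and not by others. Of the 184 probe sets, 48 carry a suffix that marks probes shared between transcripts, so that their signals may hold RNA of related genes. The other genes that were not tested were Ndufb4, which averaged 66.4 in leptin pools and 66.6 in saline pools, and Ndufaf6, which averaged 63.5 in leptin pools and 111 in saline pools.

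The spread among saline pools bears on how far the groups lay apart. The mean deviation of the 86 genes from their own averages, on the log2 scale, was -0.10, -0.05, -0.13 and -0.08 in leptin pools 5 to 8, against -0.02, 0.08, 0.13 and 0.17 in saline pools 1 to 4. The groups did not overlap, but saline 1 lay closer to the highest leptin pool than to the other saline pools. By complex, they overlapped in complex II, where leptin 5 lay at 0.0080 and saline 1 at -0.057, and in complex IV, where leptin 6 and 7 lay at 0.020 and 0.0064 and saline 1 at -0.074. Saline 1 was the lowest saline pool in 54 of the 86 genes (62.8%), against 27.1% of all tested genes, and saline 4 was the highest in 44 (51.2%, against 26.0%). Leptin 7 was the lowest leptin pool in 37 genes (43.0%, against 31.2%). Without saline 1, 14 genes were called lower, and without any one of the other 7 pools 2 to 6 were, with 2 left without saline 2 or saline 4, while the median over the 86 genes stayed between -0.23 and -0.16.

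**Figure D4:**
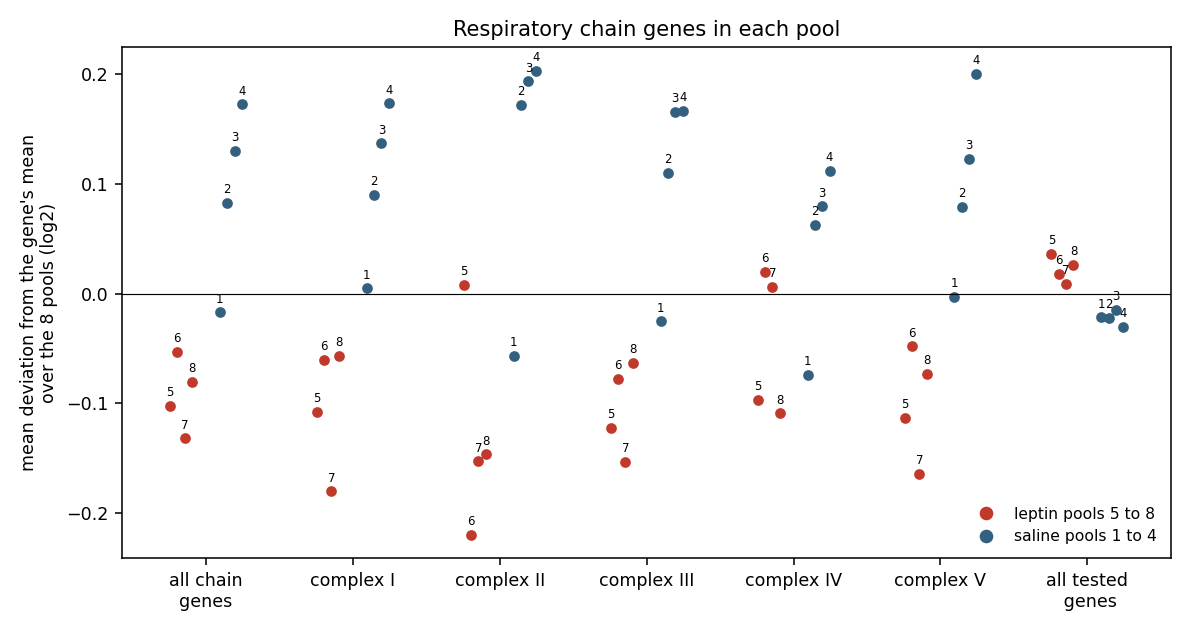
Mean deviation of the tested chain genes from their 8-pool averages (log2 scale, vertical axis) in each pool, for complexes I to V and over all chain genes, beside the same for all tested genes. Leptin pools lie at -0.13 to -0.05 and saline pools at -0.02 to 0.17 over the 86 genes, with saline 1 the lowest saline pool; over all tested genes the pools lie between -0.03 and 0.04.

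Some genes held through nearly all settings and most did not. Ndufa4 was called lower under all 23 alternative settings tried, with log2 fold changes from -1.01 to -0.62 and adjusted p of at most 0.0096. The Ndufaf4 call was kept under 21 of its 22 alternatives and lost when the actin 3' to 5' ratio was added as a covariate (-0.56, adjusted p = 0.139). Not every alternative counted here could have failed. The looser threshold reused the main fit and could not remove any call. Leaving out probe sets marked as shared between transcripts also reused that fit, so it could not remove the Ndufa4 or Ndufaf4 call. Ndufa4 has only 1 probe set, so averaging a gene's probe sets left its signals as they were, and no other probe set could be compared. Each of the other 8 genes lost its call in 9 to 12 alternatives. Quantile or cyclic loess scaling of the arrays left 2 genes called lower, with medians over the 86 genes of -0.09 and -0.05, and centring each array on its median called 54 lower with a median of -0.44. Relative to all tested probe sets, whose median was -0.02, -0.005 and -0.21 under these scalings, chain genes lay lower in each, and under none was a chain gene called higher. Most chain probe sets are in the brightest group, and no median over probe sets of like brightness was taken under these scalings.

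**Figure D5:**
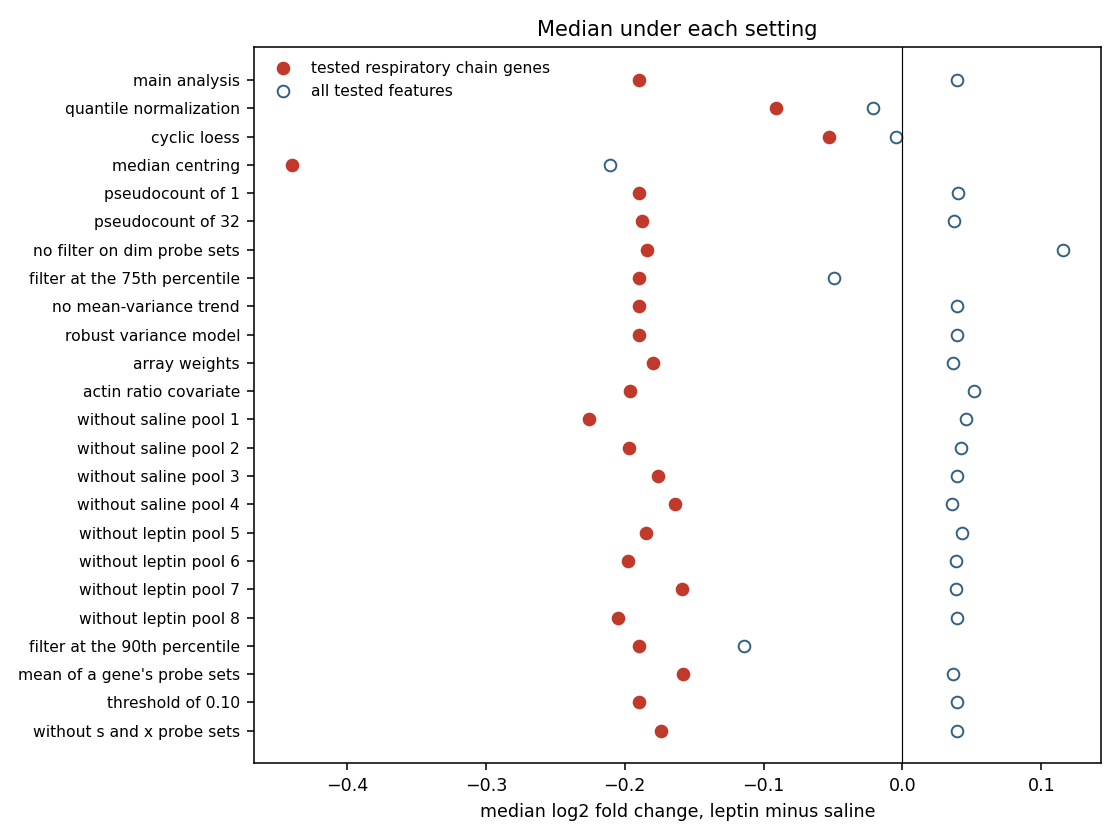
Median log2 fold change (leptin minus saline, horizontal axis) of the tested chain genes and of all tested features under the main setting and each alternative, listed down the page. The chain median runs from -0.44 with median centring to -0.05 with cyclic loess and lies to the left of the median of all features in every setting. These medians were not matched for brightness.

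Other mitochondrial gene lists had medians between -0.26 and -0.02, against 0.02 over all tested genes and -0.13 over the brightest group of probe sets, and few of their genes were called. Of all tested genes 3.98% were called lower, but that share rose with signal. It was 0.355% in the dimmest group of probe sets and 10.6% in the brightest, and the lists were not matched for brightness. Of 16 tested genes of the tricarboxylic acid cycle and pyruvate dehydrogenase, 15 lay below 0, the median was -0.22 and 1 (6.25%) fell (Pdhx, which anchors a subunit of pyruvate dehydrogenase, -0.63 ± 0.16, adjusted p = 0.032). Of 13 inner membrane carriers and pores, 3 fell and the median was -0.22. They were the dicarboxylate carrier Slc25a10 (-0.62, adjusted p = 0.0097), the ADP/ATP carrier Slc25a5, with 5477 in leptin pools and 7784 in saline pools (-0.49 ± 0.12, adjusted p = 0.025), and the outer membrane pore Vdac1 (-0.45, adjusted p = 0.036). The other ADP/ATP carrier, Slc25a4, had -0.31 (adjusted p = 0.101), and the uncoupler Ucp1 lay under background in all 8 pools. Of 21 protein import genes, 3 fell (Timm23, Tomm20 and Tomm70a), with a median of -0.26, while 12 lay below 0 and 9 above. Of 76 mitochondrial ribosomal protein genes, 3 (3.95%) fell (Mrps18b, Mrpl16 and Mrps10), 59 lay below 0 and the median was -0.11.

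Of 34 tested assembly factors outside the rule, 1 fell (Uqcc2, which helps build complex III, -0.62 ± 0.14, adjusted p = 0.017), with a median of -0.08. Of 20 regulators of mitochondrial gene expression, 1 fell and 1 rose, with a median of -0.02. Pprc1, a coactivator related to PGC-1, fell (-0.74 ± 0.17, adjusted p = 0.022), and the orphan nuclear receptor gene Esrrg rose (0.86 ± 0.22, adjusted p = 0.034). Ppargc1a, which encodes PGC-1 alpha, had 0.28 (adjusted p = 0.373), and Tfam, the main packaging and transcription factor of mitochondrial DNA, had -0.01 (adjusted p = 0.971). Of 10 hypoxia-responsive genes, 2 fell, namely Pdk1, a kinase that inhibits pyruvate dehydrogenase (-0.62 ± 0.11, adjusted p = 0.0067), and Higd1a, a small protein of the inner membrane (-0.58 ± 0.13, adjusted p = 0.019), and the median was -0.17.

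Markers of the cell types in the pools differed as well, and their part in the chain results was not tested. Over all tested genes 3.98% were called lower and 4.29% higher, and the markers were not matched for brightness. Of 9 epithelial markers, all tested, 3 fell (Krt7 by 0.96, Krt8 by 0.58 and Krt18 by 0.35 on the log2 scale), the median was -0.25, and the summed signal was 30408 to 34093 in leptin pools against 36934 to 45463 in saline pools. Epcam, Sox17 and Muc1 had values of -0.01, -0.07 and 0.03. Leukocyte markers were higher in leptin pools, with 8 of 8 macrophage genes (summed signal 8041 to 9296 in leptin pools against 3275 to 4204 in saline pools), 3 of 3 tested B and plasma cell genes (2966 to 6608 against 289 to 356) and 4 of 4 tested neutrophil genes (3621 to 6309 against 523 to 997) called. Of 7 smooth muscle markers 1 fell (Actg2) and 1 rose (Smtn), with summed signals of 34099 to 43335 in leptin pools and 35351 to 46938 in saline pools. Striated muscle markers summed to 458 to 587 in leptin pools and 366 to 544 in saline pools, with Myh1 and Actn3 under background in all pools. Adipocyte markers summed to 3229 to 5510 in leptin pools and 3411 to 11330 in saline pools, with 1 of 4 called (Cidec, lower), and brown adipocyte markers to 426 to 715 and 688 to 1618, with 1 of 4 tested called (Cidea, lower). Hepatocyte markers were present in every pool, at 82829 to 95565 in leptin pools and 66362 to 104529 in saline pools, with 0 of 7 called and values from -0.06 to 0.15.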

How the data were processed

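RNA of 8 pools of 3 gallbladders each was measured on 1-colour Affymetrix arrays. The authors deposited intensities, linear MAS 5.0 signals, with 1 value per probe set and array, made with MAS5 per the submitters' processing notes. Its version was not given in the sources used here, and no batch could be examined because no scan date was at hand. The trimmed mean of each array (2% left off each end) was 250, so a shift common to all transcripts is removed by the scaling.

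Arrays were set to the same trimmed mean, and log2(signal + 8.2) was taken, with 8.2 being the 10th percentile over the arrays, which understates the fold changes of dim genes. Control probe sets, 64 in number, were left out of the test, though some served for the background and for the actin and GAPDH ratios. The 22519 probe sets whose mean log2 value reached the median were tested with limma 3.58.1 (R 4.3.3; lmFit and eBayes, trend on), two-sided, with p-values adjusted by Benjamini-Hochberg across all of them, a threshold of 0.05 and n = 4 pools in each group. Simulations with 200 changed probe sets were run to see how many the fit recovers. At a 1.5-fold change it recovered 5.5% of them, and 21.43% of its calls were false. At 2-fold it recovered 52% with 4.59% of calls false, and at 4-fold 94% with 4.08% false. With no change simulated it made 0 calls. The changed probe sets were drawn at random from all tested ones, whose median standard error was 0.186, against 0.106 over the chain probe sets. In the data themselves 763 probe sets were called lower and 798 higher, far more than were changed in the simulations. The recovery rates therefore do not describe chain genes. Most chain genes differed by less than 1.5-fold, and one that was not called is not thereby shown to be unchanged. Background was a signal of 46.0, the 95th percentile of 27 bacterial control probe sets, which were taken to have no target in the pools. Intensities carry no counting depth; the number of arrays limits the precision, and the standard errors of the tested chain genes ran from 0.084 to 0.33 on the log2 scale.

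Gene symbols came from the platform annotation (34958 with 1 symbol, 932 with several, 9211 with none), with symbols updated through Entrez identifiers for 34754 of them. A gene was read from its brightest probe set with 1 symbol, and 10 probe sets with several symbols that included a chain gene were left out. Complexes were assigned by symbol: Nduf except Ndufaf to complex I, Ndufaf to its assembly factors, Sdh to complex II, Uqcr and Cyc1 to complex III, Cox to complex IV and Atp5 to complex V. Named with values were every gene with a called probe set, the 3 largest rises and falls in each complex, complex II, Cyc1, Cycs and sets of tissue isoforms; other genes named were chosen after their values were seen. The members and lists were chosen with earlier results of these data known. Alternatives covered scaling, pseudocount, filter, variance model, array weights, the actin ratio as a covariate, probe set summaries, the threshold and leaving out each pool.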

Additional observations from a re-analysis of the deposited data

Results flagged for a closer look

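Of 114 groups of 4 pools examined, 6 had a highest or lowest pool far from the other 3, with a gap to its nearest neighbour that was above Dixon's critical share of the group's range; chance gives about 1 in 20 such groups. In Atp5l, saline 1 was the lowest saline pool at 3046, against 3516 to 3557 in the other saline pools, a gap of 0.924 of the range. In Sdhb, saline 1 was again the lowest at 3883, against 4726 to 4827, a gap of 0.903. The mean deviation over the genes of complex II was -0.06 in saline 1, against 0.17 to 0.20 in the other saline pools, a gap of 0.880. In Ndufa4, leptin 7 was the lowest leptin pool at 2923, against 3248 to 3295, a gap of 0.880. In Cox6b1, leptin 8 was the lowest leptin pool at 9272, against 9665 to 9732, a gap of 0.858. In Ndufaf1, leptin 5 was the highest leptin pool at 550, against 522 to 525, a gap of 0.899. Ndufa4 without leptin 7 had -0.72 on the log2 scale (adjusted p = 0.0018). Without saline 1, Atp5l had -0.46 (adjusted p = 0.013) and Sdhb had -0.44 (adjusted p = 0.013), all from limma.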

How the results depend on the processing

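The median over the tested chain genes stayed below 0 in every alternative tried, and 0 genes were called higher in any, but the counts called lower and the sizes of the medians depended on the setting; the cause was not tested. Quantile normalization left 2 probe sets and 2 genes lower, with medians of -0.091 over all genes, -0.080 in complex I, -0.27 in its assembly factors, -0.11 in complex II, -0.037 in complex III and -0.070 in complex V. Cyclic loess left 2 and 2, with medians of -0.053, -0.067, -0.25, -0.11, -0.030 and -0.038 for the same groups and -0.019 in complex IV. Median centring gave 91 probe sets and 54 genes lower, with medians of -0.44, -0.45, -0.35, -0.496, -0.41 and -0.44 for the same groups and -0.37 in complex IV, and the median of all tested probe sets was then -0.21 against 0.04. Without a filter 6 probe sets and 5 genes were lower, without the mean-variance trend 2 and 2, with the actin covariate 2 and 2 (complex II median -0.45), and at a threshold of 0.10 they were 30 and 18. Averaging a gene's probe sets gave medians of -0.13 in complex I and -0.085 in complex III. Leaving out each pool gave 2 to 22 probe sets and 2 to 14 genes lower, the most without saline 1. The medians then ran from -0.23 to -0.16 over all genes and in complex I, -0.21 to -0.027 in the assembly factors, -0.33 to -0.20 in complex II, -0.26 to -0.11 in complex III, -0.18 to -0.07 in complex IV and -0.22 to -0.15 in complex V.

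Of the 86 genes, 17 changed the sign of their log2 fold change with quantile normalization, 25 with cyclic loess and 9 with median centring. Of the genes chosen for naming, followed singly under each alternative, the changes of sign were as follows. With quantile normalization Cox5a had 0.026 and Cox4i2 -0.23. With cyclic loess Cox5a had 0.077, Cox4i1 0.10, Cox4i2 -0.22, Cox6a1 0.12, Cox6b1 0.0017 and Atp5g3 0.00998. With median centring Ndufs7 and Ndufs8 had -0.17, Ndufa6 -0.25, Ndufaf1, Ndufaf3 and Cox7a2l -0.21, Cox8c -0.062, Atp5h -0.17 and Cox4i2 -0.24. Array weights gave -0.24 for Cox4i2, and the actin covariate gave -0.029 for Ndufs8, 0.19 for Cox7a1 and -0.086 for Cox7a2l. Averaging probe sets gave 0.050 for Uqcrq (adjusted p = 0.846, a lost call), -0.085 for Uqcr10 (adjusted p = 0.677, a lost call with the sign kept), -0.092 for Ndufs8 and 0.11 for Sdha. With each pool left out, Cox4i2 ran from -0.12 to 0.27, Ndufaf3 from -0.074 to 0.093, Ndufa6 from -0.020 to 0.021, Cox7a2l from -0.040 to 0.084, Cox6a1 from -0.12 to 0.0038 and Cox6a2 from -0.43 to 0.018. Atp5g1 passed the threshold with a filter at the 75th percentile (adjusted p = 0.043), with array weights (0.022) and without saline 1 (0.0065), and so it did with a filter at the 90th percentile (0.041), an alternative chosen after seeing the data.

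No paired analysis was possible because the pool numbers 1 to 4 and 5 to 8 are not shared between treatments. With 4 pools in each group, differences of this size lie close to the spread between pools and to the effect of scaling.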
